A study of Bos taurus with 8 samples.

Results

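The 43 genes described here are those of B cells and of the germinal centre. They were taken from the jejunal RNA-seq values of calves by gene symbol, and all 43 had a value, out of 17932 genes in all. The calves were Holstein bulls that entered the trial in the first days of life and were weaned shortly before tissue was taken on day 90. Calves of the control group (CON, n = 4) received milk replacer and starter, and calves of the postbiotic group (DCLI, n = 4) received the same with 1 g/d of heat-killed Limosilactobacillus ingluviei C37 (CR37 in the series' design text), a postbiotic. Each library came from a separate calf and is called CON1 to CON4 or DCLI1 to DCLI4, the latter titled TRT in the sample labels. The labels call the sample jejunal tissue and the study's methods jejunal epithelium, and neither says whether a piece held lymphoid follicles. The values are TPM, the share of a library's transcripts in millionths after correction for transcript length, so levels can be compared between genes. A TPM keeps no read count, so the number of reads behind a low value is not given. The study states the sequencing total of each library, which was not used here.

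B cells recognise antigen with a membrane immunoglobulin that signals through the chains CD79A and CD79B. In the lymphoid follicles of the gut (Peyer's patches), activated B cells gather in germinal centres, where they divide, mutate their immunoglobulin genes and are selected with help from T cells. Follicular dendritic cells and stromal cells hold the follicle together through the chemokine CXCL13, which B cells sense with CXCR5. Plasma cells, the antibody-secreting descendants of B cells, lie scattered in the lamina propria and keep only part of the B cell programme.

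The tissue label was checked first. Villin (VIL1), which builds the brush border, was at 117 TPM in CON4 and 744 to 1274 elsewhere. Since 1 protocol label names liver, and the title of the deposited values names both jejunum and liver, 4 liver genes were read. ALB never exceeded 1.07 and TF 0.70. SERPINC1 was at 6.37 in CON4 and 1.66 to 3.15 elsewhere, and APOH at 0.23 in CON4 and 1.28 to 47.6 elsewhere, highest in DCLI4. The muscle protein gene DES was at 231 to 2462, so muscle RNA was measured in every piece. In a library, 12825 to 13552 genes were at or above 1 TPM. CON4 stood apart from the other 7 libraries in nearly every gene described here, and each comparison of the diets is therefore given with and without it.

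The B cell and germinal centre genes, FDCSP apart, were highest in CON4, and their level in the other calves differed by gene. Outside CON4, 11 genes stayed below 1 TPM in every calf and 6 were at 10 TPM or more in every calf. Of the 43 genes, 42 were highest in CON4, whereas CON4 was the highest library for 39.5% of the 14533 genes that reached 1 TPM anywhere. In 29 genes the TPM of CON4 was at least 10 times that of the highest other library, against 1.37% of the 14533 genes, and in 39 genes at least 4 times, against 4.28%. The excess reached 100 times or more in 12 genes, and the median over the 43 was 29.2 times. The list was drawn up with earlier results of these data known. It holds PAX5, FCRL4, FCRLA, CR2, SIGLEC10 and P2RY8, which the study reported by DESeq2 as lower in DCLI in these same calves. For PAX5, FCRL4 and FCRLA the study also reported qPCR of the same RNA samples, with the same pattern. The counts therefore describe the list and are not a test. Summed over the genes, the TPM was 7958 in CON4, or 0.796% of its transcripts, and 245 to 317 in the other libraries. In bulk tissue a greater number of B cells and more RNA per B cell cannot be told apart.

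**Figure D1:**
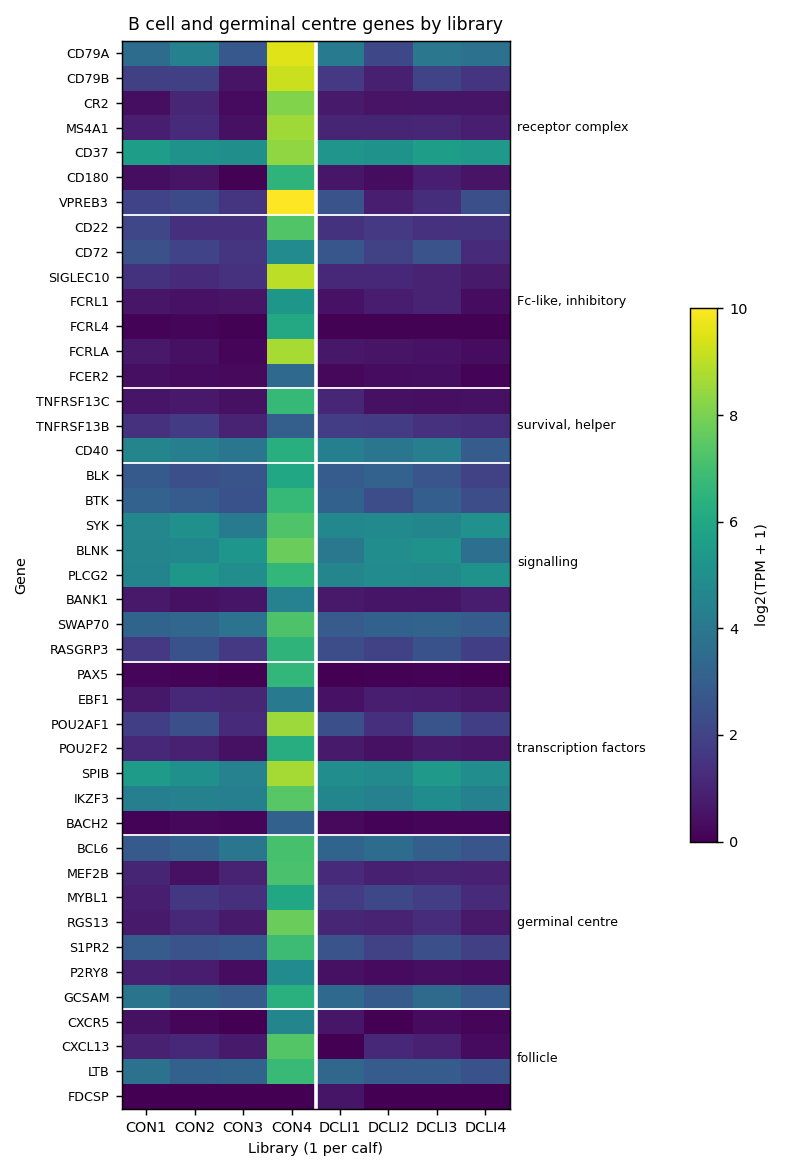
Level of the 43 genes on the log2(TPM + 1) scale (colour) in each library (columns, 1 per calf; the white vertical line parts CON from DCLI), with genes in rows by role. The column of CON4 is bright in nearly every row, and its summed TPM is 7958 against 245 to 317 in the other 7 libraries.

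Of the receptor complex and its co-receptors, 7 of 7 genes were highest in CON4, with a median excess of 187 times over the highest other library. CD79A was measured at 744 in CON4, 10.7, 20.1 and 5.69 in CON1 to CON3, and 16.7, 3.48, 14.8 and 12.5 in DCLI1 to DCLI4. Its partner chain CD79B was at 598 in CON4, 2.70, 2.77 and 0.44 in CON1 to CON3, and 2.14, 0.82, 3.20 and 1.88 in DCLI1 to DCLI4. The chains were thus near each other in CON4, where CD79A was 1.24 times CD79B, whereas it was 3.95 to 12.9 times CD79B in the other libraries. MS4A1, which encodes the B cell surface protein CD20, had 385 in CON4, 0.77, 1.33 and 0.35 in CON1 to CON3, and 1.07, 1.05, 1.08 and 0.81 in DCLI1 to DCLI4. For CR2, the complement receptor of B cells and follicular dendritic cells, the values were 278 in CON4, 0.31, 1.10 and 0.22 in CON1 to CON3, and 0.64, 0.43, 0.50 and 0.50 in DCLI1 to DCLI4. No calf other than CON4 exceeded a TPM of 1.33 for MS4A1 or 1.10 for CR2. VPREB3, a protein of the endoplasmic reticulum that associates with nascent receptor chains, was the most abundant of the 43 genes in CON4, at 1033 in CON4, 3.02, 3.77 and 1.92 in CON1 to CON3, and 4.98, 0.79, 1.45 and 4.38 in DCLI1 to DCLI4. Only 137 of all genes had a higher TPM in CON4. The Toll-like receptor homologue CD180 had 90.7 in CON4, 0.30, 0.44 and 0.05 in CON1 to CON3, and 0.51, 0.25, 0.78 and 0.43 in DCLI1 to DCLI4. CD37, a tetraspanin found on many leukocytes, was present in every calf, at 324 in CON4 and 30.8 to 47.2 (median 36.5) in the other 7 libraries.

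Among the receptors that temper or tune the B cell response, 7 of 7 were highest in CON4. SIGLEC10, an inhibitory sialic acid-binding lectin, had 517 in CON4, 1.78, 1.32 and 1.71 in CON1 to CON3, and 1.18, 1.24, 1.00 and 0.64 in DCLI1 to DCLI4. CD22, another inhibitory lectin, was at 156 in CON4, 3.36, 1.56 and 1.52 in CON1 to CON3, and 1.75, 2.14, 1.66 and 1.73 in DCLI1 to DCLI4. In the other 7 libraries both stayed below a TPM of 4. FCRLA, an intracellular Fc receptor-like protein, had 417 in CON4, 0.62, 0.37 and 0.13 in CON1 to CON3, and 0.57, 0.44, 0.42 and 0.25 in DCLI1 to DCLI4. FCRL4, an inhibitory receptor that in humans marks memory B cells of mucosa, had 65.1 in CON4, 0.06, 0.10 and 0.03 in CON1 to CON3, and 0.03, 0.04, 0.04 and 0.04 in DCLI1 to DCLI4. These were among the largest excesses of the set, 672 times for FCRLA and 651 times for FCRL4, over other libraries at no more than 0.62 and 0.10. FCRL1, an Fc receptor-like protein of B cells, was at 38.8 in CON4, 0.54, 0.39 and 0.45 in CON1 to CON3, and 0.40, 0.72, 0.94 and 0.25 in DCLI1 to DCLI4. The IgE receptor gene FCER2 was at 9.63 in CON4, 0.33, 0.23 and 0.20 in CON1 to CON3, and 0.16, 0.27, 0.28 and 0.07 in DCLI1 to DCLI4. Both showed the same split between CON4 and the rest at a lower level. CD72, an inhibitory lectin, differed less, with 27.6 in CON4 and 1.36 to 5.41 (median 3.04) in the other 7 libraries.

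The 3 receptors for survival and helper signals were also highest in CON4, by unequal factors. TNFRSF13C, the receptor for the survival factor BAFF, had 103 in CON4, 0.47, 0.61 and 0.35 in CON1 to CON3, and 1.11, 0.36, 0.32 and 0.36 in DCLI1 to DCLI4. Its ligand gene TNFSF13B, from a list of 5 survival ligands, was at 13.4 in CON4 and 1.84 to 5.11 elsewhere, and the most abundant ligand genes, TNFSF13 and TNF, were at 7.02 in CON4 and 8.61 to 17.2 elsewhere and at 8.45 in CON4 and 3.29 to 6.69 elsewhere. TNFRSF13B, the receptor TACI, was at 7.19 in CON4 and 0.95 to 2.52 (median 1.69) in the other 7 libraries. CD40, through which T cells help B cells and which antigen-presenting cells also carry, was at 78.3 in CON4 and 6.45 to 22.6 (median 18.4) in the other 7 libraries. These last 2 genes were 2.85 and 3.46 times higher in CON4 than in the highest other calf, among the smallest excesses of the set.

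**Figure D2:**
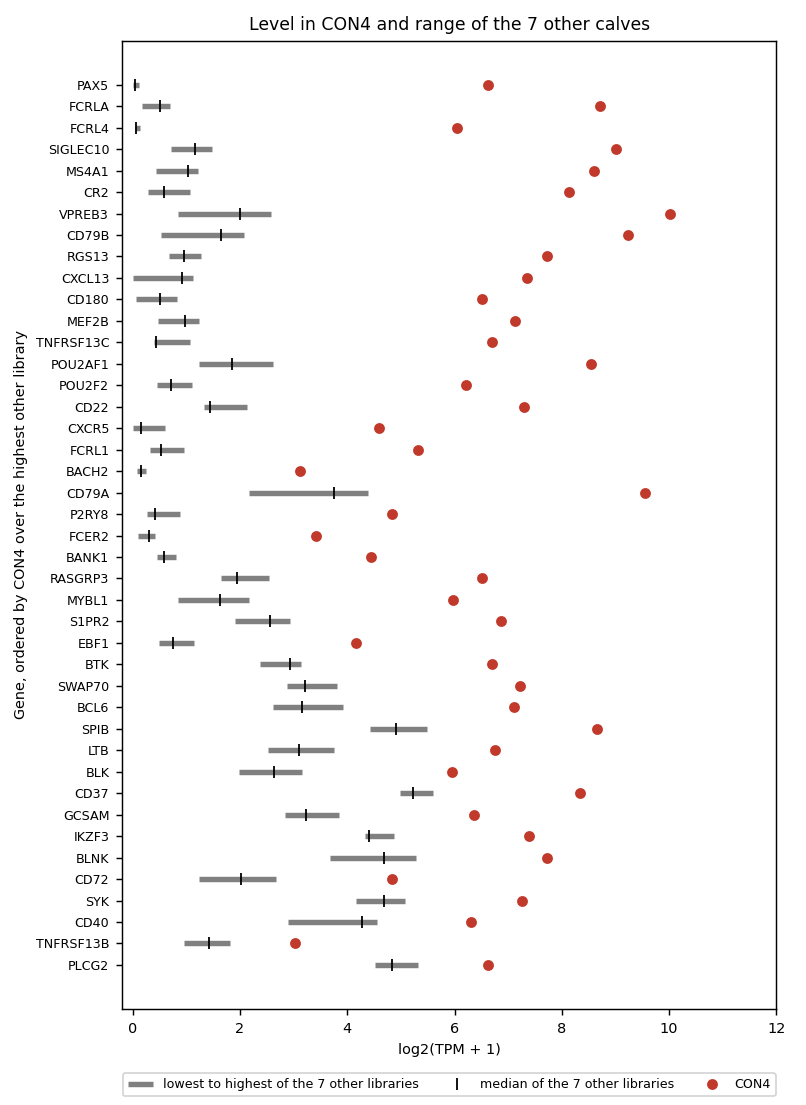
Level on the log2(TPM + 1) scale of 42 genes in CON4 (red point) and in the 7 other libraries (grey bar from lowest to highest, black tick at the median), ordered from bottom to top by the excess of CON4. PAX5 lies at the top with 1078 times and PLCG2 at the bottom with 2.53 times, and FDCSP, at 0 in CON4, is left out.

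The signalling proteins downstream of the receptor were highest in CON4 in 8 of 8 genes, but 4 of them by less than 10 times. BTK, the kinase whose loss stops B cell development in humans, had 103 in CON4, 7.79, 6.59 and 4.77 in CON1 to CON3, and 7.74, 4.18, 6.92 and 4.21 in DCLI1 to DCLI4. RASGRP3, an exchange factor for Ras proteins, was at 89.8 in CON4, 2.13, 4.79 and 2.16 in CON1 to CON3, and 4.19, 2.84, 4.73 and 2.67 in DCLI1 to DCLI4. SWAP70, an exchange factor named from activated B cells, was at 149 in CON4, 8.32, 8.84 and 13.0 in CON1 to CON3, and 6.37, 7.58, 8.22 and 6.44 in DCLI1 to DCLI4. Each of these was detected at a TPM above 2 in every calf. BANK1, a B cell scaffold, had 20.8 in CON4, 0.60, 0.37 and 0.49 in CON1 to CON3, and 0.62, 0.47, 0.47 and 0.76 in DCLI1 to DCLI4. The Src-family kinase BLK had 61.2 in CON4 and 2.95 to 7.89 (median 5.24) in the other 7 libraries. SYK, a kinase shared with myeloid cells, was at 151 in CON4 and 16.8 to 32.9 (median 24.7) in the other 7 libraries, and the adaptor BLNK at 209 in CON4 and 11.7 to 37.8 (median 24.6) in the other 7 libraries. PLCG2, a phospholipase that also acts in myeloid cells, had 97.8 in CON4 and 22.0 to 38.7 (median 27.4) in the other 7 libraries, the smallest excess among the 42 genes. SYK, BLNK and PLCG2 were thus at 11.7 or more in calves whose MS4A1 was at most 1.33.

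The 7 transcription factors were highest in CON4, by 5.89 times for IKZF3 to 1078 times for PAX5. PAX5, which sets and keeps B cell identity, had 97.0 in CON4, 0.09, 0.08 and 0.01 in CON1 to CON3, and 0.02, 0.03, 0.07 and 0.02 in DCLI1 to DCLI4. POU2F2, the octamer-binding factor OCT2, was at 73.6 in CON4, 1.14, 0.91 and 0.37 in CON1 to CON3, and 0.67, 0.37, 0.64 and 0.52 in DCLI1 to DCLI4, and its co-activator POU2AF1 at 374 in CON4, 2.58, 4.44 and 1.37 in CON1 to CON3, and 4.46, 1.65, 5.11 and 2.63 in DCLI1 to DCLI4. PAX5 and POU2F2 stayed at or near a TPM of 1 or below outside CON4, while POU2AF1, which plasma cells also express, reached 5.11. BACH2, a repressor that delays plasma cell formation, was at 7.64 in CON4, 0.06, 0.16 and 0.09 in CON1 to CON3, and 0.19, 0.06, 0.14 and 0.12 in DCLI1 to DCLI4. EBF1, an early B cell factor that stromal cells also express, was at 17.0 in CON4, 0.56, 1.21 and 1.08 in CON1 to CON3, and 0.40, 0.79, 0.68 and 0.58 in DCLI1 to DCLI4. SPIB, an ETS-family factor of B cells and of M cells, had 403 in CON4 and 20.5 to 44.1 (median 29.2) in the other 7 libraries. IKZF3, known as Aiolos and expressed by several lymphocyte types, had 167 in CON4 and 19.1 to 28.4 (median 20.3) in the other 7 libraries.

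The germinal centre genes were highest in CON4 in 7 of 7, with a median excess of 17.5 times. BCL6, the repressor that germinal centre B cells need, had 138 in CON4 and 5.16 to 14.2 (median 7.97) in the other 7 libraries. Its excess of 9.71 times fell just under the 10-fold limit, and that of SWAP70 (11.5 times) just above it. MEF2B, a factor that activates BCL6, was at 139 in CON4, 1.06, 0.38 and 1.01 in CON1 to CON3, and 1.37, 0.82, 0.97 and 0.87 in DCLI1 to DCLI4. RGS13, a regulator of chemokine receptor signalling in germinal centre B cells, had 211 in CON4, 0.65, 1.25 and 0.66 in CON1 to CON3, and 1.08, 0.94, 1.42 and 0.59 in DCLI1 to DCLI4. Both were above 100 times in CON4. MYBL1, a factor of dividing germinal centre B cells, had 61.6 in CON4, 0.80, 2.08 and 1.59 in CON1 to CON3, and 2.31, 3.52, 2.57 and 1.37 in DCLI1 to DCLI4. The receptors S1PR2 and P2RY8 keep B cells confined to the germinal centre. S1PR2 had 116 in CON4, 6.62, 4.91 and 5.70 in CON1 to CON3, and 4.95, 2.94, 4.51 and 2.76 in DCLI1 to DCLI4, and P2RY8 had 27.4 in CON4, 0.85, 0.75 and 0.26 in CON1 to CON3, and 0.35, 0.21, 0.33 and 0.27 in DCLI1 to DCLI4 (for gene ID 101908107, which RefSeq names by a locus number). The signalling adaptor GCSAM was at 80.8 in CON4 and 6.15 to 13.4 (median 8.34) in the other 7 libraries.

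The genes of follicle organisation were highest in CON4 in 3 of 4. CXCL13 had 161 in CON4, 0.88, 1.17 and 0.64 in CON1 to CON3, and 0, 1.14, 0.90 and 0.22 in DCLI1 to DCLI4. Its receptor CXCR5 had 23.1 in CON4, 0.38, 0.10 and 0 in CON1 to CON3, and 0.51, 0, 0.22 and 0.11 in DCLI1 to DCLI4. LTB, the lymphotoxin chain that organises follicles, had 107 in CON4 and 4.72 to 12.5 (median 7.56) in the other 7 libraries. Ligand and receptor were both scarce or listed at 0 in the 7 other calves. FDCSP, the secreted peptide of follicular dendritic cells, was the exception of the set: it was listed at 0 in 7 libraries, CON4 included, and at 0.49 in DCLI1 (gene ID 104968904, in RefSeq a locus number without a coding annotation).

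Other genes of the same pathways were read from lists drawn up beside the 43. Of 18 further genes of B cell receptor signalling, 17 were highest in CON4. The most abundant of the list were CD81, a widely expressed tetraspanin, and RAC2, a small GTPase of blood cells. CD81 was at 566 in CON4 and 206 to 345 elsewhere, and RAC2 at 340.5 in CON4 and 63.8 to 148 elsewhere. Of 17 further germinal centre genes with a value, 14 were highest in CON4. ELL3 was at 154 in CON4 and 0.53 to 1.67 elsewhere, and UNG, a glycosylase that removes uracil from DNA, at 95.3 in CON4 and 10.8 to 15.5 elsewhere. ELL3, UNG, MME, SUGCT, STAP1, LCK and TNFSF13B were named after their values were seen. The 2 most abundant genes of the list, IRF8 and ID3, were only 1.16 and 1.99 times higher in CON4 than in the next calf. MME, a marker of germinal centre B cells in humans that also lies on the brush border, went the other way, at 2.01 in CON4 and 25.4 to 128 elsewhere, as did the enterocyte genes. SUGCT was also lowest in CON4, at 0.27 in CON4 and 0.45 to 1.60 elsewhere. STAP1 lay inside the range of the others, at 16.1 in CON4 and 11.3 to 30.1 elsewhere.

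Among 12 genes of follicular helper T cells and follicular dendritic cells (CXCR5 included), 8 were highest in CON4. The most abundant were CLU, a secreted chaperone that many cell types make, at 1220.0 in CON4 and 253 to 447 elsewhere, and the adhesion molecule VCAM1, at 19.1 in CON4 and 6.12 to 16.0 elsewhere. B lineage precursors were read in the same way. RAG1 and RAG2, which recombine receptor genes in precursors, were listed at 0 in the 7 other libraries and at 0.02 and 0.04 in CON4. DNTT reached at most 0.11 and VPREB1 at most 0.22 in any library. The gene listed as IGLL1 was abundant in every calf, at 3163 in CON4 and 422 to 3530.3 elsewhere. Outside CON4 it was lowest in DCLI2, CON3 and CON1, the calves in which the plasma cell gene JCHAIN was also lowest. Which cells the IGLL1 level came from was not tested. CD34, a gene of progenitors that endothelium also expresses, was at 9.52 in CON4 and 17.6 to 28.8 elsewhere.

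Genes of other cell types did not all move with the B cell genes. The summed TPM of 10 T cell genes was 291 in CON4 and 475 to 679 in the other libraries, and 6 of the 10 were lowest in CON4. CD3E, a chain of the T cell receptor complex, was at 59.5 in CON4 and 161 to 240.0 elsewhere, and CD3G, another, at 28.9 in CON4 and 81.1 to 111 elsewhere. LCK, the kinase of the T cell receptor, was the 1 gene highest in CON4, at 117 in CON4 and 55.7 to 78.8 elsewhere. CD4, CD5 and CD28 lay inside the range of the others, CD4 at 13.2 in CON4 and 4.75 to 46.8 elsewhere, CD5 at 8.86 in CON4 and 7.26 to 23.9 elsewhere and CD28 at 1.16 in CON4 and 0.49 to 1.78 elsewhere. Of the helper T cell genes that act in follicles, ICOS was at 4.39 in CON4 and 2.75 to 8.21 elsewhere, CD40LG at 0.37 in CON4 and 0 to 1.43 elsewhere, and PDCD1 at 10.8 in CON4 and 2.28 to 6.87 elsewhere; these 3 were also named after their values were seen. The summed TPM of 8 plasma cell genes was 1271 in CON4, inside the range of the others (459 to 2312), a sum that JCHAIN dominates. Of the 8, 4 were highest in CON4 and 2 lowest. JCHAIN, the joining chain of secreted IgA, was at 879 in CON4 and 185 to 1894 elsewhere, and XBP1, a factor of secretory cells, at 98.5 in CON4 and 132 to 242 elsewhere. The 4 genes highest in CON4 were IRF4, a factor that activated B cells also express, at 51.9 in CON4 and 2.41 to 9.56 elsewhere, DERL3 at 106 in CON4 and 9.70 to 25.8 elsewhere, MZB1 at 104 in CON4 and 17.2 to 96.4 elsewhere and PRDM1 at 19.1 in CON4 and 10.8 to 14.8 elsewhere. SDC1, which epithelium also expresses, was lowest in CON4, at 10.5 in CON4 and 37.5 to 63.8 elsewhere. All 8 proliferation genes were highest in CON4 (summed TPM 1287 against 92.3 to 249), with PCNA at 326 in CON4 and 28.0 to 60.2 elsewhere and MCM3 at 193 in CON4 and 14.1 to 32.2 elsewhere. Of 7 genes of M cells and follicle epithelium, 4 were highest in CON4, and their sum was 1058 against 222 to 347. SPIB, itself 1 of the 43 genes, and GP2, a receptor of M cells at 353 in CON4 and 0.05 to 1.37 elsewhere, made up most of it. ANXA5, by mean the most abundant gene of that list, was lowest in CON4, at 52.2 in CON4 and 121 to 268 elsewhere. TNFRSF11A was also lowest in CON4, at 4.20 in CON4 and 6.62 to 11.06 elsewhere. CCL20 lay inside the range of the others, at 26.7 in CON4 and 3.03 to 30.4 elsewhere. The sum of 7 macrophage genes was 751 in CON4 and 335 to 1020 elsewhere, with C1QA at 247 in CON4 and 96.4 to 436 elsewhere, C1QB at 212 in CON4 and 81.4 to 348 elsewhere, and MARCO at 0 in every calf but DCLI3 (0.16). CD163 and CD68 were the 2 macrophage genes highest in CON4, at 12.1 in CON4 and 1.03 to 6.10 elsewhere and at 99.2 in CON4 and 17.7 to 76.6 elsewhere. Enterocyte genes were lowest in CON4 in 9 of 10, with a sum of 1173 against 9459 to 34218. LCT was listed at 0 in CON4 and also in CON3, with 0.09 in CON1 and 52.8 to 518 in the rest. ALPI was at 0 in CON4 and 0.18 to 1.75 elsewhere, FABP2 was at 349.5 in CON4 and 3939 to 21045 elsewhere, and APOA4 at 27.1 in CON4 and 833 to 7817 elsewhere. Smooth muscle genes in CON4 were within the range of the others (sum 1160 against 755 to 7062), with DES at 331 in CON4 and 231 to 2462 elsewhere and TAGLN at 366 in CON4 and 205 to 1983 elsewhere. The part of these shifts in the B cell values was not tested.

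**Figure D3:**
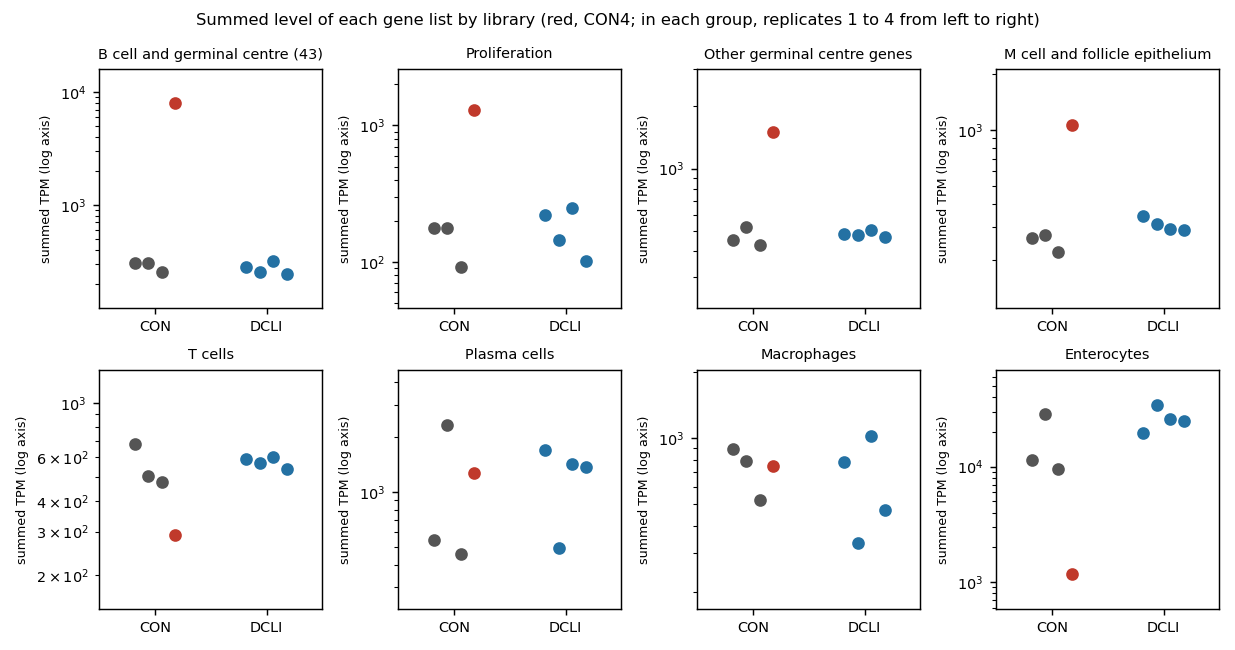
Summed TPM (log axis) of each gene list in the 4 CON and 4 DCLI libraries, with CON4 in red. CON4 is highest for the 43 genes (7958), proliferation (1287), the other germinal centre genes (1500) and M cell genes (1058, mostly SPIB and GP2). It is lowest for T cell (291) and enterocyte genes (1173), and inside the range of the others for plasma cell (1271) and macrophage genes (751).

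The diets were compared with limma on log2(TPM + 1), over the 13228 genes that reached 1 TPM in 4 or more libraries. Calls required an adjusted p under 0.05 and a log2 fold change of 1 or more in size. Of the 43 genes, 27 reached the filter and 16 did not, among them PAX5, CR2, FCRL4 and FCRLA, and 15 of the 16 were highest in CON4. MEF2B and RGS13 reached the filter only through CON4, where they were high, and fell below it without that library. Of the 27, 0 were called, as were 0% of all genes tested, and 0 had an unadjusted p under 0.05, against 7.08% of all genes (2.99% lower and 4.09% higher in DCLI). All 27 had a lower mean level in DCLI, against 56.5% of all genes, with a median log2 fold change of -1.14, against -0.06 over all genes. The log2 fold changes ran from -2.29 to -0.24 and the adjusted p from 0.730 to 0.870. Over 90% of the TPM sum of the CON group came from CON4 in 25 of the 43 genes.

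In single genes a large difference came with a wide spread in CON. SIGLEC10 averaged 1.01 ± 0.270 (SD, n = 4) in DCLI against 131 ± 258 (SD, n = 4) in CON, a fitted difference on the log2 scale of -2.29 (SE 1.57; limma adjusted p = 0.747). VPREB3 averaged 2.90 ± 2.09 (SD, n = 4) in DCLI against 260 ± 515 (SD, n = 4) in CON, with -2.17 (SE 1.70; limma adjusted p = 0.758). The smallest p of the 27 genes were those of S1PR2, with -1.55 (SE 0.87; limma adjusted p = 0.730), and of LTB, with -1.29 (SE 0.73; limma adjusted p = 0.730). S1PR2 averaged 3.79 ± 1.10 (SD, n = 4) in DCLI against 33.3 ± 55.0 (SD, n = 4) in CON, and LTB 6.70 ± 1.71 (SD, n = 4) against 33.9 ± 48.9 (SD, n = 4). For these 4 genes the SD of the CON group exceeded its mean. The groups did not overlap in 2 of the 27 genes, SIGLEC10 and SWAP70, where every CON calf was above every DCLI calf, against 3.11% of all genes tested.

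Without CON4 the genes lay on both sides of 0. Of the 25 genes that reached the filter in the remaining 3 CON and 4 DCLI libraries, 13 were lower and 12 higher in DCLI, and 48.6% of the 13139 genes tested were lower. Their median log2 fold change was -0.05, against 0.01 over all genes, and values ran from -0.51 to 0.46. None was called by limma (0% of all genes), and 1, S1PR2, had an unadjusted p under 0.05, against 10.1% of all genes (5.85% lower and 4.22% higher in DCLI). Over all 43 genes, 20 were lower and 23 higher, and the median standard error was 0.22, against 0.90 with CON4. PAX5 went from -1.67 (SE 1.39) to -0.03 (SE 0.04), FCRLA from -2.01 (SE 1.77) to 0.06 (SE 0.13), CD79A from -1.54 (SE 1.32) to -0.05 (SE 0.54) and MS4A1 from -1.77 (SE 1.60) to 0.17 (SE 0.22). CR2 went from -1.87 (SE 1.62) to 0.02 (SE 0.18) and FCRL4 from -1.52 (SE 1.27) to -0.03 (SE 0.04). P2RY8 stayed below 0, from -1.35 (SE 0.90) to -0.31 (SE 0.13; limma adjusted p = 0.566 without CON4). PAX5, FCRLA, CR2, FCRL4 and P2RY8 were under the filter, and their values are those of the unfiltered fit.

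**Figure D4:**
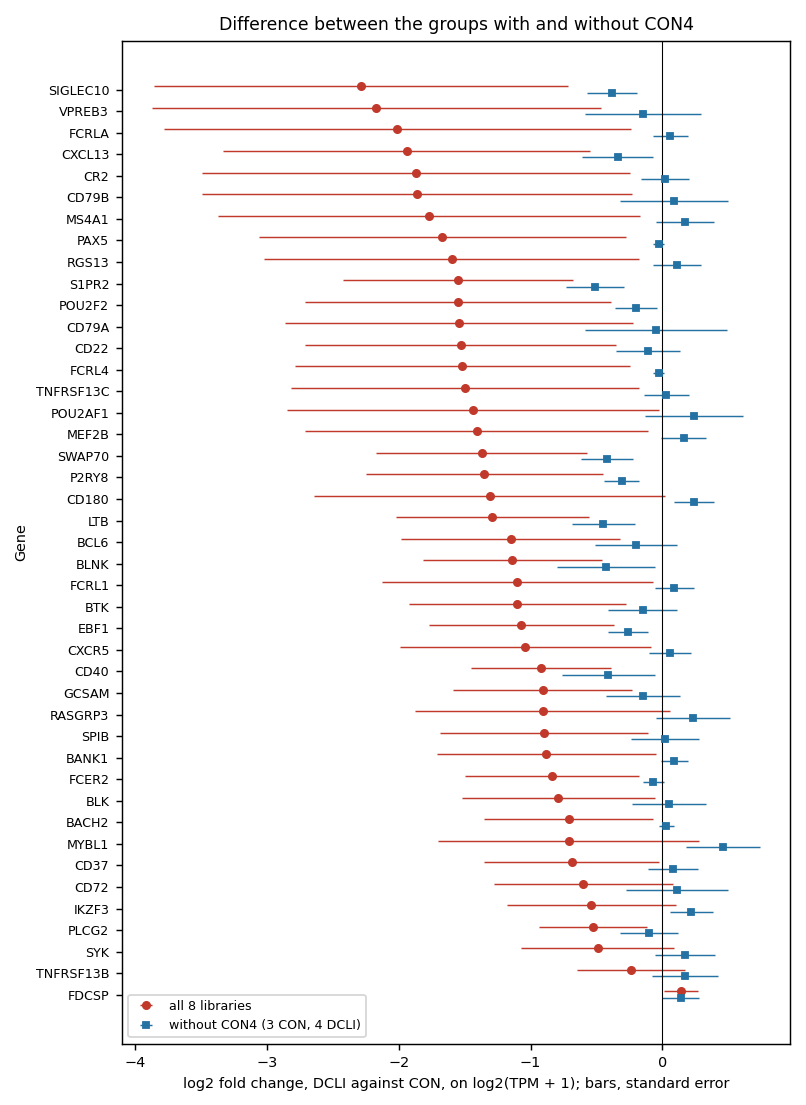
Log2 fold change of DCLI against CON on log2(TPM + 1) for the 43 genes, with all 8 libraries (red circles) and without CON4 (blue squares), with bars of 1 standard error. With CON4 all but FDCSP lie below 0 (down to -2.29), and without it the genes lie between -0.51 and 0.46 on both sides of 0.

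The other 7 calves still differed among themselves. S1PR2 was measured at 4.95, 2.94, 4.51 and 2.76 in DCLI1 to DCLI4, against 6.62, 4.91 and 5.70 in CON1 to CON3, a fitted log2 difference of -0.51 (SE 0.22; limma adjusted p = 0.492). DCLI2 and DCLI4 were the low calves, and DCLI1 lay within the CON range. SIGLEC10 was at 1.18, 1.24, 1.00 and 0.64 in DCLI1 to DCLI4, against 1.78, 1.32 and 1.71 in CON1 to CON3, without overlap, and had -0.38 (SE 0.19; limma adjusted p = 0.550). SWAP70 was at 6.37, 7.58, 8.22 and 6.44 in DCLI1 to DCLI4, against 8.32, 8.84 and 13.0 in CON1 to CON3, again without overlap, and had -0.42 (SE 0.20; limma adjusted p = 0.517). These were the 2 genes of the 25 with every CON calf above every DCLI calf, against 6.31% of all genes. IKZF3 was the 1 gene with every DCLI calf above, at 23.2, 20.4, 28.4 and 20.3 in DCLI1 to DCLI4, against 19.1, 20.1 and 19.2 in CON1 to CON3, against 3.42% of all genes, with 0.22 (SE 0.16; limma adjusted p = 0.669). LTB, at 8.90, 6.64, 6.54 and 4.72 in DCLI1 to DCLI4, against 12.5, 7.56 and 8.47 in CON1 to CON3, overlapped only through DCLI1, with -0.45 (SE 0.24; limma adjusted p = 0.560). MYBL1 had the largest value in the other direction, 0.46 (SE 0.28; limma adjusted p = 0.597), at 2.31, 3.52, 2.57 and 1.37 in DCLI1 to DCLI4, against 0.80, 2.08 and 1.59 in CON1 to CON3. None of these passed the adjusted threshold. Beside them, the summed smooth muscle TPM was 2000 to 7062 in CON1 to CON3 and 755 to 2479 in DCLI, and the summed macrophage TPM 525 to 890 and 335 to 1020. The part of muscle or macrophages in these values was not tested.

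CON3 was the lowest of the 7 libraries for 15 of the 43 genes and DCLI4 for 11, while CON1 was the highest for 14. Ties were given to the first library in order. The count of CON3 thus includes FCRL4, where DCLI1 was as low, and POU2F2 and CXCR5, where DCLI2 was as low. These counts are given without a share over all genes. The spread between these calves differed by gene. CD79A spread 5.76-fold, from 3.48 in DCLI2 to 20.1 in CON2, CD79B 7.27-fold, from 0.44 in CON3 to 3.20 in DCLI3, and VPREB3 6.30-fold, from 0.79 in DCLI2 to 4.98 in DCLI1. CD37 spread only 1.53-fold and IKZF3 1.48-fold. For 5 of the 43 genes (11.6%), CD79A, POU2AF1, CR2, CD180 and BACH2, the 3 lowest calves were CON1, CON3 and DCLI2, against 3.48% of the 14533 genes. In POU2AF1 this rests on 2.58 in CON1 against 2.63 in DCLI4. CR2, CD180 and BACH2 were low throughout, at no more than 1.10, 0.78 and 0.19 in the libraries other than CON4. For CD79B and VPREB3, CON1 was not among the 3 lowest. The same 3 calves were the lowest for 6 of the 8 plasma cell genes, among them JCHAIN (185 in CON3, 240.5 in DCLI2 and 280.2 in CON1, against 991 or more in the rest) and MZB1 (17.3, 17.2 and 44.1, against 66.1 or more). PRDM1 and SDC1 broke the order, with CON3 at 13.8 for PRDM1 and CON1 and CON3 at 61.5 and 61.4 for SDC1, near the highest of the 7. This order was noted after the values were seen and was not tested. In CON4 the relation differed: the TPM of CD79A was 0.846 times that of JCHAIN, and 0.0106 to 0.0380 times in the other 7 calves.

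**Figure D5:**
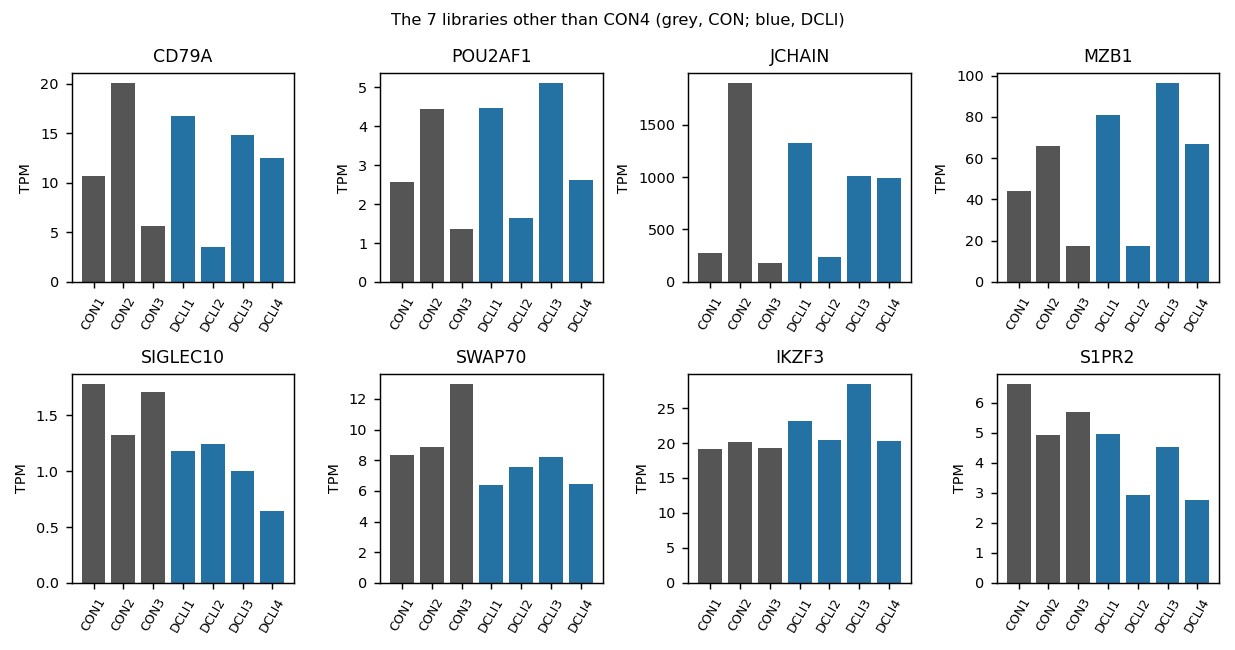
TPM of 8 genes in the 7 libraries other than CON4 (grey bars CON, blue bars DCLI; each axis starts at 0). CD79A and POU2AF1 are low in the same calves (CON3, DCLI2 and CON1) as JCHAIN and MZB1. These last 2 are among the 6 plasma cell genes of 8 with that order. POU2AF1 has it only by 2.58 in CON1 against 2.63 in DCLI4. SIGLEC10 and SWAP70 are higher in every CON calf, as were 6.31% of all genes tested without CON4. IKZF3 is higher in every DCLI calf (3.42% of all genes), by 20.25 in DCLI4 against 20.12 in CON2.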

How the data were processed

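RNA-seq of jejunal tissue from 4 CON and 4 DCLI calves, with 1 library per calf, was read from the deposited table. By the study's methods, SOAPnuke cleaned the poly(A) reads, HISAT2 aligned them to ARS-UCD1.2 and RSEM quantified the transcripts. The deposited values are the authors' TPM per transcript, 1 column per calf. They were summed by gene ID from 50681 rows to 17932 genes. No count model could be fitted to TPM, and 8 further columns (read counts, filled in 76 rows) were not used. The study's DESeq2 test (version 1.4.5 in the submitters' processing notes) was not repeated.

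DCLI was compared with CON by limma (lmFit, eBayes with trend) on log2(TPM + 1), with Benjamini-Hochberg adjustment over all genes tested. This scale understates changes of low genes. Genes under the filter (1 TPM in 4 or more libraries) take their values from the same fit with no filter. The fit was first tested on simulated data with a spread taken without CON4. That test does not cover data in which 1 library stands apart. The members, the lists and the alternatives were chosen with earlier results of these data known. The genes named are all 43 members, in every library those at least 10 times higher in CON4, and, of each other list, the 2 with the highest mean TPM and defining markers at or near 0 in a library (RAG1, RAG2, DNTT, VPREB1, LCT, ALPI, MARCO, ALB, TF). Other list genes, VIL1 and GP2 included, were named after their values were seen. Alternatives changed the pseudocount, the filter, the scaling, the library weights, a replicate block and the omission of each library. Of the 43 symbols, 41 are those of the RefSeq table of assembly ARS-UCD2.0, used for names only. No sequence was analysed here, and 2 genes of the other lists are not reported here. A TPM keeps no depth, so no counting interval is given per gene, and errors are those between calves. R 4.3.3, limma 3.58.1, Python 3.11.15, numpy 2.4.6, pandas 2.3.3 and matplotlib 3.10.9 were used.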

Additional observations from a re-analysis of the deposited data

Results flagged for a closer look

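Within each group of 4 calves, the gap between an extreme library and its neighbour was divided by the group's whole range, and genes above Dixon's critical value for 4 samples are given. Chance marks about 1 in 20 groups, and of the 14533 genes that reached 1 TPM anywhere 16.1% were marked in CON (11.3% through a high CON4) and 6.42% in DCLI. In CON, 40 of the 43 genes were marked, all through CON4. The share of the range was 1.00 for CD79B, CR2, MS4A1, CD180, VPREB3, SIGLEC10, FCRL1, FCRL4, FCRLA, TNFRSF13C, PAX5, MEF2B, RGS13 and CXCL13, 0.99 for CD22, FCER2, BANK1, POU2AF1, POU2F2, IKZF3 and BACH2, 0.98 for CD79A, MYBL1, S1PR2, P2RY8 and CXCR5, 0.97 for BLK, BTK, SWAP70 and RASGRP3, 0.96 for EBF1, 0.95 for LTB, 0.94 for CD37, SPIB and BCL6, 0.92 for BLNK, 0.91 for GCSAM, 0.89 for CD72 and SYK and 0.87 for CD40. The genes not marked in CON were TNFRSF13B and PLCG2, where CON4 was also the highest library, and FDCSP, at 0 in every CON calf.

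In DCLI, 4 genes were marked. FCRL4 had a share of 1.00 through DCLI1 (0.03, against 0.04 in the other DCLI calves), a step of the last printed digit. FDCSP had 1.00, also through DCLI1 (0.49, against 0). TNFRSF13C had 0.95 through DCLI1 (1.11, against 0.32 to 0.36), and MS4A1 had 0.89 through DCLI4 (0.81, against 1.05 to 1.08).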

How the results depend on the processing

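The direction of many genes depended on the library weights and on CON4. With array weights, which gave CON4 a weight of 0.098, 9 of the 43 log2 fold changes turned from below to above 0: CD37 0.08, CD72 0.23, FCRL1 0.02, BLK 0.14, BANK1 0.05, IKZF3 0.16, MEF2B 0.28, MYBL1 0.16 and CXCR5 0.04. The median of the tested genes was then -0.16, and 1 had an unadjusted p under 0.05, against 0 in the main comparison. Leaving out 1 library changed the direction only where it was CON4, in 22 genes, and the ranges over the 8 fits were -2.82 to 0.09 for CD79B, -2.60 to 0.02 for CR2, -2.55 to 0.17 for MS4A1, -1.04 to 0.08 for CD37, -1.91 to 0.24 for CD180, -1.01 to 0.11 for CD72, -1.52 to 0.09 for FCRL1, -2.78 to 0.06 for FCRLA, -2.05 to 0.03 for TNFRSF13C, -0.52 to 0.17 for TNFRSF13B, -1.12 to 0.05 for BLK, -0.86 to 0.17 for SYK, -1.24 to 0.09 for BANK1, -1.39 to 0.23 for RASGRP3, -2.20 to 0.24 for POU2AF1, -1.39 to 0.02 for SPIB, -0.80 to 0.22 for IKZF3, -0.98 to 0.03 for BACH2, -2.06 to 0.16 for MEF2B, -1.24 to 0.46 for MYBL1, -2.22 to 0.11 for RGS13 and -1.47 to 0.06 for CXCR5. The number of tested members with an unadjusted p under 0.05 ran from 0 to 1 over these fits, and the number of genes called over the whole table from 0 to 9 (9 without CON2 and 1 without DCLI1), none of them a member. FDCSP had no value without DCLI1. The cause was not tested.

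The pseudocount of 0.1, both other filters, median-ratio scaling (which moved the median of all genes by 0.04 on the log2 scale) and the replicate block kept the direction of every member with a value, and called 0 of them. With the replicate block the median of the tested members was -1.14 and 0 genes were called. The replicate numbers share only a number, since deviations of same-numbered calves correlated at -0.198 to 0.051 across genes. Under median-ratio scaling 42 members were highest in CON4 and 29 at least 10 times, and with a limit of 4 times there were 39. Values under a TPM of 1 are given as listed, since no read count per gene was used.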
